A study of Homo sapiens with 18 samples.

Results

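TNFAIP3 and 9 other genes of the NF-kappaB pathway were followed across the 18 RNA-seq libraries of the series. The 10 genes are the feedback inhibitors TNFAIP3 and NFKBIA, the NF-kappaB subunits NFKB1, NFKB2, RELA, RELB and REL, and the targets BIRC3, CXCL8 and IL6. They were taken by Ensembl identifier out of 63677 genes in the count table. The genes were selected on a reading of earlier fold changes of these same TBX libraries against the controls, so those fold changes are given as descriptions, without a test.

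The cells were NCI-H1299, an established human lung cancer line labelled as lung adenocarcinoma and used at passage 12 to 14. They were transiently transfected with a plasmid for TBX2, TBX3, TBX4 or TBX5, T-box transcription factors of one subfamily, or with an empty vector (EV). A further group was labelled Ctl, and the sources used here do not say how it was treated. Each of the 6 groups had 3 libraries, with the letters a, b and c. TBX2 and TBX4 were human Flag-tagged sequences in pORF, TBX3 was a human HA-tagged sequence in pCGN and TBX5 a mouse HA-tagged sequence in pCGN, so the backbone and the tag changed together with the gene. The backbone of the empty vector is not given, so values against EV alone may not be matched to the vector of every TBX. Transfection reached a share of the cells only, and in bulk RNA a larger change in few cells and a smaller change in many cannot be told apart. The labels do not say whether the 3 libraries of a group came from separate cultures, so p-values measure the spread between libraries, which may be technical.

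NF-kappaB is a family of dimeric transcription factors that inhibitor proteins hold in the cytoplasm of resting cells. Signals from TNF, interleukin-1 or Toll-like receptors pass through adaptors and ubiquitin chains to the IKK kinases, which mark the inhibitors for destruction and free the dimers to enter the nucleus. There they bind kappaB sites near genes of inflammation and survival, and also near genes of their own inhibitors, which closes a negative feedback loop.

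The promoter sequences of 4 of the genes are shown as examples of windows with matches to the kappaB consensus. These are the inhibitors TNFAIP3 and NFKBIA and the targets BIRC3 and IL6, which the results below set apart by level. Matches nearer to a transcription start were found for NFKB1 (-49 to -40), REL (-47 to -38) and NFKB2 (-21 to -12), whose sequences are not shown. Sequences are from RefSeq (GRCh38.p14), run 5′ to 3′ on the strand of the gene from 250 bases before the RefSeq start, and stop before the first annotated exon of the gene within the window. The IL6 stretch lies in an intron of the gene as annotated, which has a transcript that starts farther upstream, and the others lie before the annotated gene. A script placed each of them once on GRCh37, the build of the counts. Capitals mark the kappaB matches, searched on both strands, and all but the IL6 match read as the consensus on the opposite strand.
TNFAIP3 (chr6:138188146-138188350, plus strand): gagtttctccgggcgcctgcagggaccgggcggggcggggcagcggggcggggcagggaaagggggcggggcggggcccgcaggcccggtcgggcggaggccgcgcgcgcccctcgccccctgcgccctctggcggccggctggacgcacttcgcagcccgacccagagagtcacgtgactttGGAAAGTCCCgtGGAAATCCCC
NFKBIA (chr14:35873956-35874205, minus strand): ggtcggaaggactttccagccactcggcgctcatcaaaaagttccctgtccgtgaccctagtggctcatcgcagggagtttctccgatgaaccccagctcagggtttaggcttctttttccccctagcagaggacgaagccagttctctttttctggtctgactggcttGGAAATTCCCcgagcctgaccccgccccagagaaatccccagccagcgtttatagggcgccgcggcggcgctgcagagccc
BIRC3 (chr11:102187965-102188214, plus strand): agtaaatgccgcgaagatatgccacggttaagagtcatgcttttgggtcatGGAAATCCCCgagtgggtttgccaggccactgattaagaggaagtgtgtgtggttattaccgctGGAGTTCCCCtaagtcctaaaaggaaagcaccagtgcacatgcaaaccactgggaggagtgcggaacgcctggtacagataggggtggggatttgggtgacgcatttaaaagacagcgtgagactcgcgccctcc
IL6 (chr7:22766569-22766765, plus strand): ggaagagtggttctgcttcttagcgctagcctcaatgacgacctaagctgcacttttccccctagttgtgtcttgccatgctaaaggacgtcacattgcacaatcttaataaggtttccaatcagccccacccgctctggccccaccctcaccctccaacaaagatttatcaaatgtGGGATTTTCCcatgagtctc

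TNFAIP3 held a pair of matches, at -67 to -58 and -55 to -46 from the start, and BIRC3 a pair farther out, at -199 to -190 and -135 to -126. NFKBIA held 1 match at -81 to -72, and IL6 held 1 at -73 to -64. The promoter table gave 13 windows of 300 bases for 9 of the 10 genes, RELB being the gene without an entry. A kappaB match was in 8 of the 13 windows, for 7 genes, and in 11.3% of all 35116 windows of that length. The T-box core GTGTGA was in 1 of the 13 windows (CXCL8, -143 to -138) and in 12% of all windows. The longer core AGGTGTGA, which contains GTGTGA, was in 0 of the 13 and in 0.98% of all windows. A match describes letters only, and binding was not measured here.

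**Figure D1:**
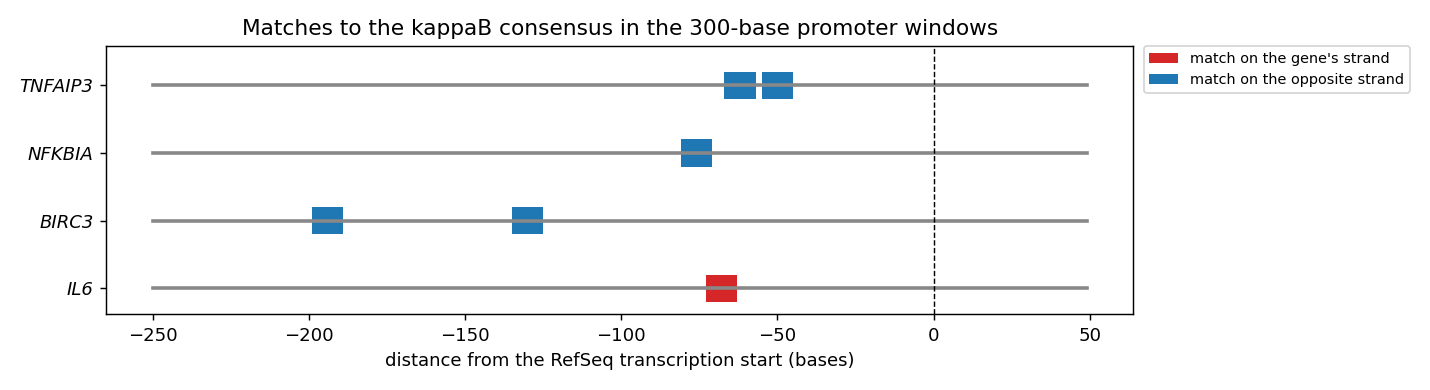
Each grey line is the 300-base RefSeq promoter window of a gene, drawn by distance in bases from the transcription start (dashed line at 0). Boxes are matches to the kappaB consensus, in red on the strand of the gene and in blue on the opposite strand, and the match of TNFAIP3 nearest to the start ends 46 bases before it.

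Libraries held 7365221 to 11743179 counts. The most counted gene took 10.7% to 53.5% of them, the most in TBX5 replicates b (53.5%) and c (52.7%), and levels below are counts scaled to a common library size (CPM) by TMM, which sets that size by the bulk of the genes. A level of 3 counts, taken as the floor of detection, equals 0.191 to 0.593 CPM. The transfected genes matched their labels. TBX2 stood at 4073 to 4806 CPM in its own libraries and at most 4.82 CPM in the controls, TBX3 at 17690 to 25335 against at most 3.32, TBX4 at 7520 to 8471 against at most 0.0989, and TBX5, on the human gene for a mouse plasmid, at 128 to 242 CPM against 0 counts. The library labelled 4c-TBX5 was taken as TBX4 replicate c from its number, and its TBX4 level is within the TBX4 range given. Of 6 epithelial markers, the keratins KRT8, KRT18 and KRT7 passed the filter on low counts, while EPCAM, CDH1 and KRT19 had at most 3 counts in any library. No lung-lineage, leukocyte or endothelial marker passed it. The summed level of the 6, carried by KRT8 and KRT18, was 97.1 to 115 CPM in Ctl, 112 to 113 in EV, 68.69 to 77.04 with TBX2, 77.7 to 85.04 with TBX3, 84.6 to 99.4 with TBX4 and 102 to 127 with TBX5. In edgeR's quasi-likelihood test against the pooled controls, KRT8 fell with TBX2 (log2 fold change -0.79), TBX3 (-0.45) and TBX4 (-0.23) and rose with TBX5 (0.26), KRT18 fell with TBX2 (-0.56) and TBX3 (-0.41), and the low KRT7 rose with TBX2 (1.37, adjusted p = 0.0038). Of the mesenchymal markers, VIM fell with TBX2 (-0.31) and TBX3 (-0.24), CDH2 fell with TBX2 (-0.26), TBX4 (-0.23) and TBX5 (-0.25), and FN1 rose with TBX2 (0.41), TBX4 (0.42) and TBX5 (0.50). The part of these markers in the results for the NF-kappaB genes was not tested.

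TNFAIP3 was higher in each of the 12 TBX libraries than in any of the 6 controls, with group means in the order TBX2, TBX3, TBX4, TBX5. The gene (ENSG00000118503, GRCh37 chr6:138188351-138204451, plus strand) encodes A20, a ubiquitin-editing enzyme that shuts off signalling from TNF and Toll-like receptors to IKK. It stood at 10.6, 10.0 and 9.49 CPM in Ctl replicates a, b and c, and at 12.2, 11.8 and 9.61 in EV.
The TBX2 libraries had 33.2, 31.5 and 34.6 CPM, the highest values of the series. TBX3 gave 25.5, 22.9 and 25.1 CPM and TBX4 gave 21.1, 23.7 and 22.2, so these groups overlapped each other. TBX5 gave 16.6, 22.9 and 17.1 CPM, where replicate b lay among the TBX3 and TBX4 libraries and the others below them.
Against the 6 pooled controls (10.6 ± 1.14 CPM, SD, n = 6), the log2 fold change was 1.65 (SE 0.088) with TBX2, 1.23 (SE 0.091) with TBX3, 1.08 (SE 0.088) with TBX4 and 0.82 (SE 0.12) with TBX5, or 3.14-, 2.34-, 2.12- and 1.76-fold. All 4 values use the same controls. Without TBX5 replicate b the TBX5 value was 0.68, and without replicate a it was 0.93. When single libraries were left out, the TBX2 value stayed between 1.62 and 1.69. With libraries scaled by their totals instead, TBX4 (1.34) lay above TBX3 (1.14), so the order of these groups depended on the scaling. The exons of the antisense gene WAKMAR2 cover 1.47% of the TNFAIP3 exon bases, and the counting did not use strand.

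The TBX groups were also compared in pairs, in 1 fit of all libraries. These pair differences rest on the same TBX libraries as the fold changes behind the choice of genes. The pair tests given for the genes below are thus not independent evidence of an order. The order of TNFAIP3 was known, so its values are given without a test, and counts of genes below include it as a description only. TNFAIP3 was lower with TBX3 than with TBX2 by a log2 difference of -0.42 (SE 0.097), with TBX4 by -0.56 (SE 0.094) and with TBX5 by -0.83 (SE 0.11). TBX5 lay below TBX3 by -0.41 (SE 0.11), or by -0.30 without TBX5 replicate a. The neighbours TBX3 and TBX4 (-0.14, SE 0.097) and TBX4 and TBX5 (-0.27, SE 0.11) had overlapping libraries. The EV and Ctl libraries differed by 0.13 (SE 0.12, adjusted p = 0.792, edgeR).

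NFKBIA, the inhibitor IkappaB alpha that masks the nuclear localisation signal of RELA, differed little between groups. The gene (ENSG00000100906, GRCh37 chr14:35870285-35873955, minus strand) stood between 28.1 and 30.1 CPM in the 6 controls, with a median of 28.7. TBX2 gave 26.1, 29.9 and 27.2 CPM, TBX3 34.6, 31.3 and 30.0, and TBX4 30.3, 30.5 and 27.1. All 3 groups overlapped the controls.
TBX5 gave 27.7, 25.7 and 26.9 CPM, all below the lowest control. The log2 fold changes against the pooled controls were -0.05 (SE 0.072), 0.14 (SE 0.068), 0.02 (SE 0.065) and -0.11 (SE 0.073) for TBX2, TBX3, TBX4 and TBX5. In none of the 6 pairs of TBX groups did NFKBIA pass edgeR's quasi-likelihood test (Benjamini-Hochberg adjusted), the nearest being TBX5 and TBX3 (-0.24, SE 0.085, adjusted p = 0.105). The profiles of the 2 inhibitors differed in range, TNFAIP3 spanning 9.49 to 34.6 CPM and NFKBIA 25.7 to 34.6 CPM over the 18 libraries.

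**Figure D2:**
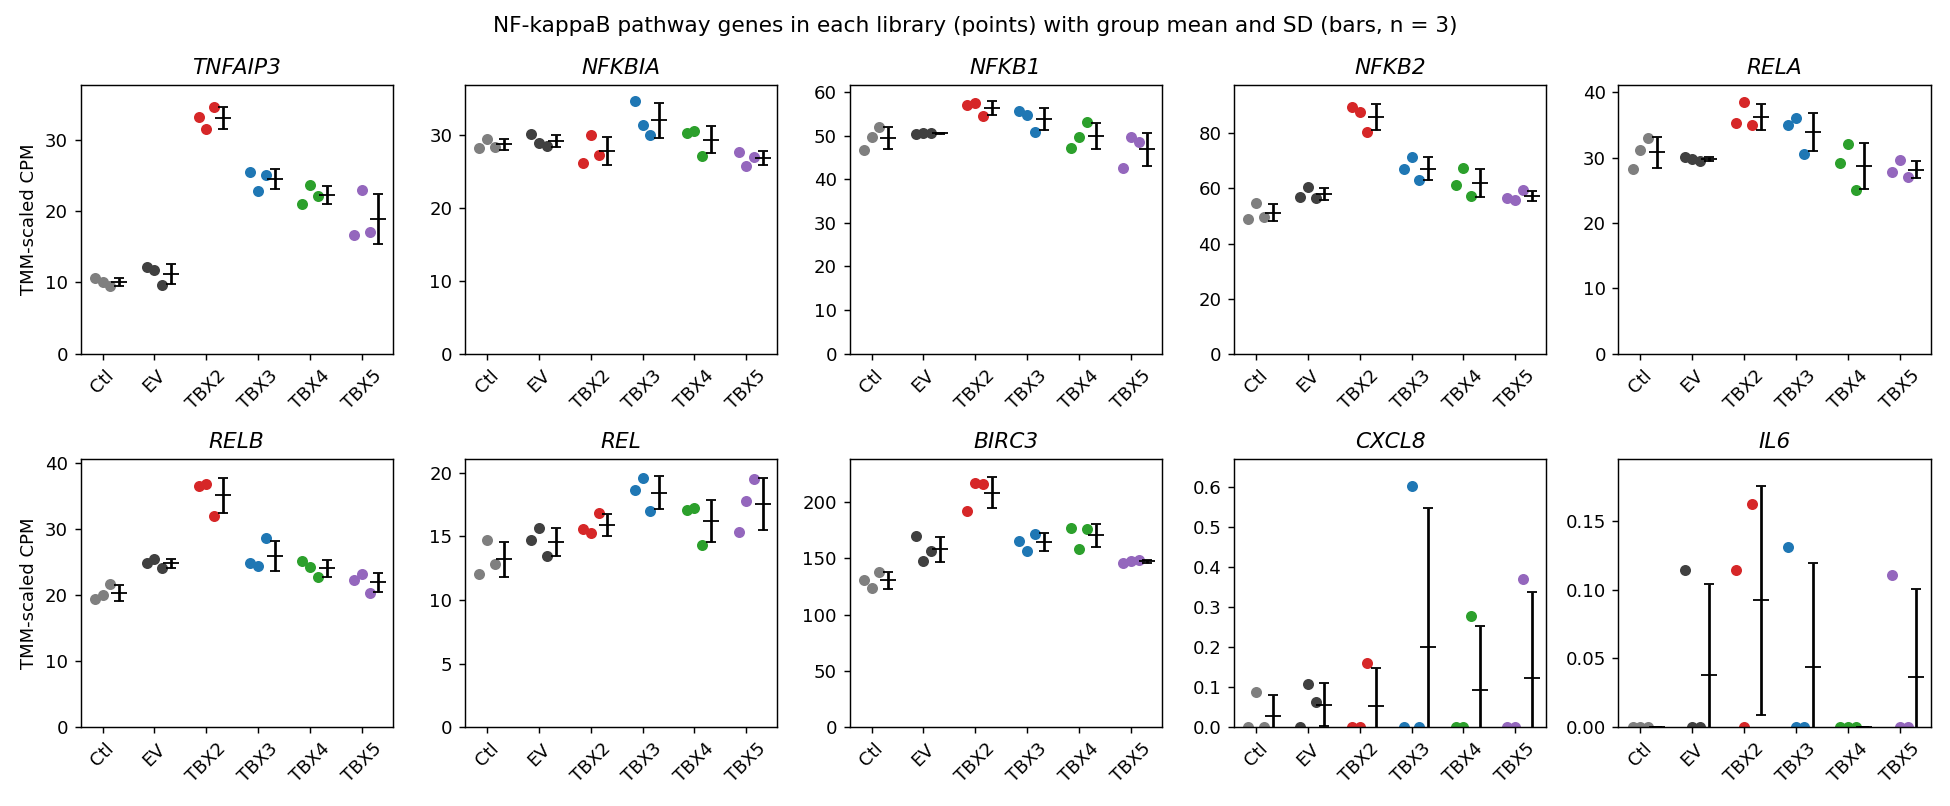
TMM-scaled CPM (y axis, linear from 0) of the 10 genes in each library, by group (x axis), with the group mean and SD (n = 3) as bars. All TBX libraries lie above the EV and Ctl libraries for TNFAIP3, the TBX2 libraries lie above them for NFKB2, RELB and BIRC3, and CXCL8 and IL6 stay under 1 CPM.

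NFKB2 and RELB, whose products p52 and RelB form the dimer of the non-canonical arm of the pathway, were highest in the TBX2 libraries. NFKB2 (ENSG00000077150, GRCh37 chr10:104153867-104162281, plus strand) stood at 48.96, 54.7 and 49.7 CPM in Ctl and at 57.1, 60.6 and 56.5 in EV. With TBX2 it reached 89.5, 88.0 and 80.4 CPM, above every other library of the series. TBX3 gave 67.0, 71.4 and 63.1 CPM, also all above the controls, while TBX4, at 61.4, 67.5 and 57.3, and TBX5, at 56.4, 56.0 and 59.4, overlapped them. The log2 fold changes against the pooled controls were 0.66 (SE 0.069), 0.29 (SE 0.068), 0.18 (SE 0.068) and 0.07 (SE 0.073).

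RELB (ENSG00000104856, GRCh37 chr19:45504719-45541450, plus strand) followed a like order. Its 6 control libraries ran from 19.4 to 25.5 CPM with a median of 22.96, and the TBX2 libraries from 32.05 to 36.8. TBX3 gave 24.8, 24.4 and 28.6 CPM, TBX4 25.2, 24.3 and 22.7, and TBX5 22.3, 23.1 and 20.4. Of the TBX groups, only TBX2 did not overlap the controls, at a log2 fold change of 0.64 (SE 0.087). The others were 0.22 (SE 0.090), 0.09 (SE 0.083) and -0.04 (SE 0.099), and TBX3 fell to 0.12 without TBX3 replicate c.

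NFKB1, which encodes the precursor of p50, and RELA, which encodes p65, form the dimer of the canonical arm, and both moved less. NFKB1 (ENSG00000109320, GRCh37 chr4:103422487-103538459, plus strand) stood at 46.8 to 52.0 CPM in the controls (median 50.5) and at 57.0, 57.6 and 54.5 with TBX2. RELA (ENSG00000173039, GRCh37 chr11:65421070-65430561, minus strand) stood at 28.2 to 33.0 CPM in the controls (median 30.0) and at 35.3, 38.5 and 34.96 with TBX2. For both genes the TBX2 libraries lay just above all controls, at log2 fold changes of 0.18 (SE 0.061) for NFKB1 and 0.26 (SE 0.070) for RELA. With TBX3, TBX4 and TBX5 both genes overlapped the controls, with values from 0.15 (RELA, TBX3) to -0.11 (RELA, TBX5).

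REL, which encodes c-Rel, had another order. The gene (ENSG00000162924, GRCh37 chr2:61108626-61158747, plus strand) stood at 12.0 to 15.6 CPM in the controls, with a median of 14.1. TBX3 gave the highest mean, with 18.7, 19.6 and 17.0 CPM, all above the controls, and TBX5 gave 15.4, 17.8 and 19.5, of which the first lay within the control range. TBX2 gave 15.6, 15.2 and 16.8 CPM and TBX4 gave 17.1, 17.2 and 14.3, both overlapping the controls. The log2 fold changes in the order TBX2 to TBX5 were 0.19 (SE 0.099), 0.40 (SE 0.094), 0.23 (SE 0.092) and 0.32 (SE 0.11), the last of which was -0.0040 when libraries were scaled by their totals. Exons of ENSG00000267520 cover 33.3% of the REL exon bases, so part of its reads could have been assigned otherwise or left uncounted.

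BIRC3, encoding the inhibitor of apoptosis cIAP2, was the most abundant of the 10 genes and differed between the control groups as well. The gene (ENSG00000023445, GRCh37 chr11:102188215-102210134, plus strand) stood at 131, 123 and 138 CPM in Ctl and at 169.9, 148 and 157 in EV, without overlap. TBX2 gave 193, 217 and 216 CPM, above every other library. TBX3 gave 166, 156 and 172 CPM, TBX4 gave 177, 159 and 176, and TBX5 gave 146, 148 and 149. These groups fell within or next to the EV range.
Against the pooled controls the log2 fold changes were 0.53 (SE 0.079), 0.19 (SE 0.075), 0.24 (SE 0.073) and 0.03 (SE 0.078). Against EV alone they were 0.40, 0.06, 0.10 and -0.10. The choice of control moved RELB too, to 0.52, 0.08, -0.04 and -0.17 against EV alone, and NFKB2 to 0.58, 0.20, 0.10 and -0.02. For TNFAIP3 the values against EV alone were 1.59, 1.16, 1.02 and 0.75.

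CXCL8 and IL6, the cytokines interleukin-8 and interleukin-6, were at or near the floor of detection in every group. CXCL8 (ENSG00000169429, GRCh37 chr4:74606236-74609433, plus strand) had 0 counts in 11 of the 18 libraries and 13 counts in all. The highest library, TBX3 replicate b, had 4 counts (0.602 CPM), followed by TBX4 replicate c with 3. IL6 (ENSG00000136244, GRCh37 chr7:22765503-22771621, plus strand) had 0 counts in 13 libraries and 1 count in each of the other 5, of which TBX2 held 2. A difference between groups was not detectable at this depth for either gene, and no fold change is given. Antisense genes cover 9.91% of the IL6 exon bases.

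Levels were also divided by the length of all annotated exons of a gene, merged over its transcripts. That length can exceed the length of the transcripts expressed, so the order between genes depends on it. In the controls the mean level was 19.3 CPM per kb for BIRC3, 9.78 for NFKB2, 8.52 for NFKBIA, 7.54 for RELB and 5.55 for RELA. NFKB1 followed at 3.19, TNFAIP3 at 1.65, REL at 0.811, CXCL8 at 0.0167 and IL6 at 0.0044 CPM per kb. On this scale TNFAIP3 reached 5.14 CPM per kb with TBX2, against 3.60 for NFKB1, 6.64 for RELA and 8.17 for NFKBIA in the same libraries. Before the division NFKB1 was higher than TNFAIP3 there (56.4 against 33.1 CPM). Their merged exons span 15.7 and 6.44 kb, so which transcript is more abundant is not settled.

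**Figure D3:**
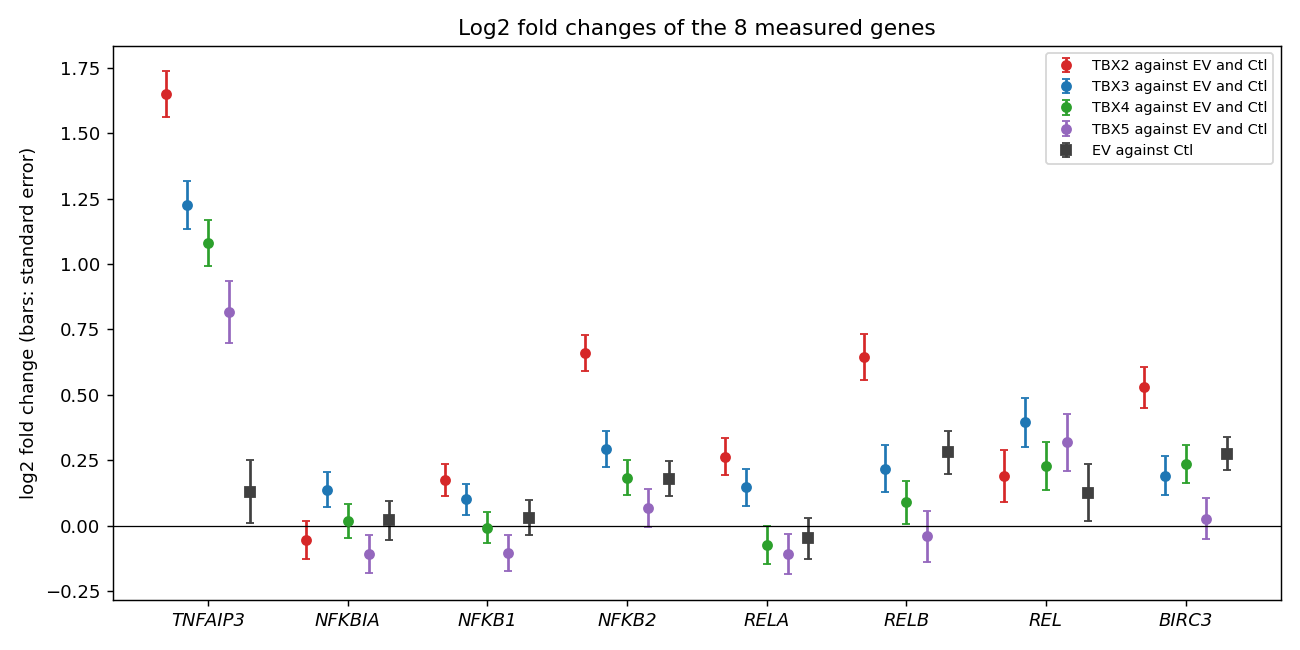
Log2 fold changes (y axis, points, with standard errors as bars) of the 8 genes that passed the filter, for each TBX against the 6 pooled controls and for EV against Ctl (black squares). TNFAIP3 lies at 0.82 or above with every TBX, while BIRC3, RELB and NFKB2 show differences between EV and Ctl of 0.28, 0.28 and 0.18.

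Of the 10 genes, 8 passed the filter on low counts (over 5 counts in 10 or more libraries), CXCL8 and IL6 being the others. An adjusted p under 0.1 against the pooled controls was reached by 6 of the 8 with TBX2 (32.6% of all 15576 tested genes), by 3 with TBX3 (14.9%), by 3 with TBX4 (13%) and by 2 with TBX5 (12.7%). All these values were positive. Libraries lay above all controls for 6 genes with TBX2 (12.9% of all tested genes), for 3 with TBX3 (8.37%), for 1 with TBX4 (6.84%) and for 1 with TBX5 (7.48%), and below them for 1 with TBX5 (6.55%). Since these contrasts were known when the genes were listed, the counts are a description and carry no weight as evidence.

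The control groups were compared to see how they differed. As the treatment of Ctl is not known, a difference cannot be assigned to the empty vector. BIRC3 was higher in EV than in Ctl (log2 fold change 0.28, SE 0.063, adjusted p = 0.0819 in edgeR's quasi-likelihood test (Benjamini-Hochberg adjusted)), in 3 of 3 libraries. It was the only gene called of the 8, where 0.385% of all tested genes were called. Leaving out Ctl replicate a, Ctl replicate b, EV replicate a or EV replicate c ended that call, as did, in edgeR, the replicate block (0.27, adjusted p = 0.114) and 1 fit of all libraries (adjusted p = 0.16), with the value between 0.22 and 0.28 in these cases. RELB (0.28, SE 0.083, adjusted p = 0.237) and NFKB2 (0.18, SE 0.067, adjusted p = 0.416) did not pass the edgeR test, though their EV libraries also lay above all Ctl libraries. This made 3 genes of 10 without overlap, where 7.68% of all tested genes had EV above Ctl.

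Between the TBX groups, 6 of the 8 genes differed in an edgeR quasi-likelihood test of any difference among TBX2 to TBX5, where 22.7% of all tested genes were called. The TBX libraries are those that the choice of genes rests on, so these counts and the p-values between TBX groups are not independent of it. They are given as descriptions and carry no weight as evidence that the TBX2 libraries stand out. TNFAIP3 was among the 6, which describes its known order only. For the others the adjusted p-values were 5.79e-06 for NFKB2, 7.55e-06 for RELB, 5.97e-05 for BIRC3, 0.0098 for RELA and 0.040 for NFKB1. NFKBIA (adjusted p = 0.138) and REL (adjusted p = 0.459) did not pass the edgeR test.
All pair differences past the threshold had the TBX2 or the TBX3 libraries on the higher side. Of the 8 genes, 4 were lower with TBX3 than with TBX2 (8.01% of all tested genes), 5 with TBX4 (6.66%) and 6 with TBX5 (6.45%). NFKB2 differed from TBX2 by -0.37 (SE 0.072), -0.47 (SE 0.071) and -0.59 (SE 0.076) with TBX3, TBX4 and TBX5, and RELB by -0.43 (SE 0.084), -0.55 (SE 0.082) and -0.68 (SE 0.091). The adjusted p of these NFKB2 and RELB differences was at most 0.0010 in edgeR's test.
BIRC3 was lower than with TBX2 by -0.34 (SE 0.069), -0.29 (SE 0.068) and -0.50 (SE 0.070), with adjusted p of at most 0.0070 (edgeR). RELA was lower with TBX4 (-0.33, SE 0.087, adjusted p = 0.015, edgeR) and TBX5 (-0.37, SE 0.095, adjusted p = 0.013). NFKB1 was lower with TBX5 only (-0.28, SE 0.076, adjusted p = 0.020, edgeR), and not without TBX5 replicate a (-0.20, adjusted p = 0.165).

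Among the other pairs few differences passed. Between TBX5 and TBX3, 2 of the 8 genes were lower with TBX5 (4.3% of all tested genes), TNFAIP3 and NFKB2 (-0.23, SE 0.077, adjusted p = 0.0922, edgeR). TNFAIP3 is counted there as a description, and without TBX5 replicate a or replicate c it was not past the threshold. The NFKB2 call between these groups lay close to the threshold and was lost with any of 11 libraries left out, among them TBX3 replicate b (-0.18, adjusted p = 0.286, edgeR). The pairs TBX4 and TBX3 and TBX5 and TBX4 had 0 genes past the edgeR threshold, where 9.98% and 0.539% of all tested genes were called, and DESeq2 also called 0 in both. These 0 calls do not show equal levels. RELA was lower with TBX4 than with TBX3 by -0.22 (SE 0.087), and BIRC3 was lower with TBX5 than with TBX4 by -0.21 (SE 0.070).

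**Figure D4:**
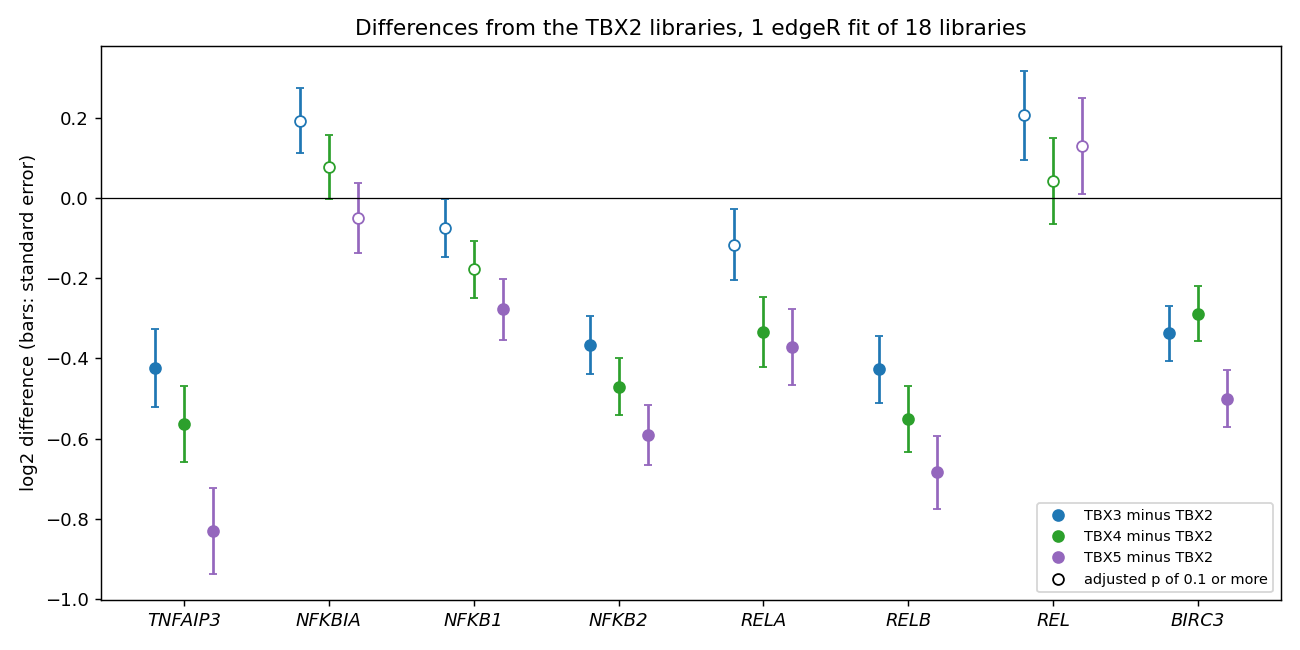
Log2 differences (y axis, with standard errors as bars) of TBX3, TBX4 and TBX5 from TBX2 for the 8 genes, from 1 edgeR fit of 18 libraries. Filled points have an adjusted p under 0.1 and open points do not, with TNFAIP3 shown as a description only. NFKB2 and RELB lie below 0 in all 3 comparisons, at -0.37 to -0.68, and NFKBIA and REL have open points only.

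Over the 18 libraries the genes most like TNFAIP3 in log2 level were CREBRF (Pearson r = 0.95), RPL32P3 (0.93), ZNF844 (0.92), the immediate-early transcription factor EGR1 (0.92) and ZNF432 (0.92). Of the listed genes, NFKB2 had r of 0.82 with TNFAIP3, BIRC3 0.78, RELB 0.71 and REL 0.61, and NFKBIA had 0.012. These values follow the group means, and the 18 libraries share 6 conditions. After the group means were subtracted, r with TNFAIP3 was -0.089 for NFKB2, -0.0072 for BIRC3 and 0.15 for RELB, and the genes most like it were OSBPL5 (0.91), ENSG00000218596 (0.90), TEAD4 (0.88), EMSY (0.86) and SPATA1 (0.85). These r values are the highest of 15576 and are descriptions, with no test.

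The wider pathway was read from 106 other genes in 6 lists by role, of which 75 passed the filter. The lists were chosen with earlier results of these same libraries known. The counts and p-values below are therefore not independent evidence of a shift of the pathway. In edgeR's quasi-likelihood test against the pooled controls, 26 of the 75 rose and 8 fell with TBX2 (17% and 15.6% of all tested genes), 18 rose and 4 fell with TBX3 (8.47% and 6.4%), 5 rose and 3 fell with TBX4 (6.98% and 6.07%), and 8 rose and 5 fell with TBX5 (6.56% and 6.12%). The median log2 fold change of the 75 was 0.074, 0.088, 0.0083 and 0.029, against medians between -0.0058 and -0.0013 over all tested genes. In all, 46 genes passed in at least 1 contrast, and all contrasts share the 6 controls. The share of all tested genes that did so is not given, so the 46 cannot be read as many or few. CYLD and BCL10 rose with all 4 TBX (1.21% of all tested genes) and BCL2L1 fell with all 4 (1.24%), although scaling by library totals turned BCL10 with TBX5 (-0.034) and BCL2L1 with TBX4 (0.011). With that scaling 23 of the 35 calls of the genes named below did not pass the edgeR test. With EV alone 7 of the 35 did not pass, with Ctl alone 10 and with DESeq2 6.

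Of the other inhibitors and feedback regulators, 5 of 14 rose and 1 fell with TBX2 (17% and 15.6% of all tested genes). With TBX3, 7 rose (8.47%), and with TBX4, 1 rose (6.98%). With TBX5, 2 rose and 1 fell (6.56% and 6.12%). The median was 0.079, 0.16, -0.060 and 0.0060. CYLD, a deubiquitinase that like A20 restrains the pathway, stood at 19.3 to 21.2 CPM in the controls (median 20.5) and at 36.4, 37.1 and 34.96 with TBX2.
Its TBX3 libraries (22.2, 22.9 and 26.2 CPM), TBX4 libraries (27.4, 24.6 and 27.2) and TBX5 libraries (24.6, 31.3 and 29.7) were all above the controls too. The log2 fold changes were 0.83 (SE 0.069), 0.24 (SE 0.077), 0.36 (SE 0.069) and 0.45 (SE 0.086), with adjusted p of 7.68e-09, 0.0505, 0.0012 and 0.0017 in edgeR's test. The TBX3 value fell to 0.13 without TBX3 replicate c (adjusted p = 0.442, edgeR), and it did not pass with 5 of 10 alternative settings, among them DESeq2 (adjusted p = 0.132), no filter (0.184) and Ctl alone (0.237).
ZC3H12A, an RNase that degrades inflammatory mRNAs, rose with TBX3 from 2.83 to 4.26 CPM in the controls (median 3.09) to 6.92, 8.27 and 7.15 (log2 fold change 1.13, SE 0.15, adjusted p = 2.38e-05, edgeR), and rose with TBX5 by 0.59 (adjusted p = 0.0491), though not with EV alone (0.50, adjusted p = 0.178) or without TBX5 replicate b or c (adjusted p = 0.121 and 0.154). NFKBIE, the inhibitor IkappaB epsilon, rose with TBX2 (0.69, SE 0.10, adjusted p = 2.45e-05, edgeR), from 10.6 to 14.8 CPM in the controls to 19.5, 22.2 and 18.9.

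Of the IKK complex and upstream kinases, 6 of 13 rose and 1 fell with TBX2 (17% and 15.6% of all tested genes). With TBX3, 6 rose (8.47%), and 1 rose with each of TBX4 (6.98%) and TBX5 (6.56%). The medians were 0.11, 0.072, 0.020 and 0.094. TAB2, which ties ubiquitin chains to the kinase TAK1, rose with TBX2 (0.54, SE 0.084) and TBX3 (0.58, SE 0.062), with adjusted p of 4.53e-05 and 8.54e-07 (edgeR). It had values of 0.020 with TBX4 and 0.10 with TBX5, which did not pass. RIPK2, the kinase downstream of the NOD receptors, rose with TBX2 (0.45, SE 0.10) and TBX3 (0.37, SE 0.095), the latter not without TBX3 replicate c (0.26, adjusted p = 0.195, edgeR). TANK, an adaptor that binds TRAF proteins, fell with TBX2 (-0.34, SE 0.081).

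Of the adaptors and ubiquitin ligases, 4 of 19 rose and 2 fell with TBX2 (17% and 15.6% of all tested genes). With TBX3, 2 rose and 1 fell (8.47% and 6.4%), and with TBX4, 2 rose (6.98%). With TBX5, 2 rose and 1 fell (6.56% and 6.12%). The medians were 0.045, 0.072, -0.014 and 0.016. TRAF1, a TNF receptor adaptor, rose with TBX2 (0.69, SE 0.10), TBX4 (0.34, SE 0.090) and TBX5 (0.33, SE 0.11), with adjusted p of 2.15e-05, 0.0168 and 0.0603 (edgeR), and had 0.24 (SE 0.10, adjusted p = 0.149) with TBX3. Its EV libraries, at 22.0 to 27.6 CPM, lay above its Ctl libraries, at 18.4 to 21.4, a difference of 0.31 that did not pass (adjusted p = 0.255, edgeR). Against EV alone TRAF1 had 0.19 with TBX4 and 0.18 with TBX5, and neither passed edgeR's test (adjusted p = 0.194 and 0.322). The TBX4 call was also lost without TBX4 replicate b (adjusted p = 0.11, edgeR), and the TBX5 call without any of 4 libraries (Ctl a, Ctl c, TBX5 a and TBX5 c, adjusted p from 0.101 to 0.212). BCL10, which links antigen receptor signals to IKK, stood at 16.6 to 19.1 CPM in the controls and rose by 0.30, 0.30, 0.24 and 0.27 with TBX2, TBX3, TBX4 and TBX5. The TBX5 value fell to 0.17 without TBX5 replicate a (adjusted p = 0.399, edgeR), and it did not pass without Ctl replicate c, EV replicate b or TBX5 replicate c, nor with 6 of 10 alternative settings, among them DESeq2 (adjusted p = 0.159), EV alone (0.147) and Ctl alone (0.194). The TBX4 value of BCL10 did not pass with DESeq2 (adjusted p = 0.114), with Ctl alone or without TBX4 replicate c (0.152).
UBE2V1, a ubiquitin-conjugating enzyme variant, had 0.35 (SE 0.12, adjusted p = 0.0656, edgeR) with TBX3, with 43.2% of its exon bases shared with a readthrough gene. That call was lost with 6 of 10 alternative settings, EV alone, Ctl alone and DESeq2 among them (adjusted p = 0.125, 0.19 and 0.136), and without any of 4 libraries (Ctl b, EV c, TBX3 a and TBX3 b, lowest value 0.26). The kinase IRAK2 fell with TBX5 (-0.37, SE 0.12), but not with DESeq2 (adjusted p = 0.107), with Ctl alone (-0.27) or without EV replicate a, TBX5 replicate a or TBX5 replicate c (-0.25, adjusted p = 0.306).

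Of the receptors, 4 of 9 rose and 2 fell with TBX2 (17% and 15.6% of all tested genes). With TBX3, 1 rose (8.47%), and with TBX4, 2 fell (6.07%). With TBX5, 1 rose and 1 fell (6.56% and 6.12%). The medians were 0.20, 0.060, 0.013 and -0.12. TLR3, the receptor for double-stranded RNA, rose with TBX2 (0.92, SE 0.30, adjusted p = 0.0279, edgeR), from 0.586 to 1.28 CPM in the controls to 1.488, 1.505 and 1.457. Against EV alone it had 0.65, which did not pass (adjusted p = 0.189, edgeR), and without EV replicate b, its highest control, 1.09 (adjusted p = 0.0111). CD40, a TNF receptor family member, rose with TBX2 (0.51, SE 0.12), and the interleukin-1 receptor IL1R1 rose with TBX5 (0.93, SE 0.24, adjusted p = 0.0187, edgeR), from 1.07 to 2.15 CPM to 3.10, 2.97 and 3.15. With Ctl alone IL1R1 had 0.74 and did not pass (adjusted p = 0.117, edgeR). Of the 10 ligands, only 2 passed the filter, IL1A and IL1B, which encode the forms of interleukin-1, and 0 of them passed edgeR's test against the pooled controls. The lowest unadjusted p there was 0.13 (IL1A with TBX2), and IL1B had -0.80 in EV against Ctl (unadjusted p = 0.0342, adjusted p = 0.498, edgeR).

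Of the inflammatory and survival targets, 7 of 18 rose and 2 fell with TBX2 (17% and 15.6% of all tested genes). With TBX3, 2 rose and 3 fell (8.47% and 6.4%). With TBX4, 1 rose and 1 fell (6.98% and 6.07%), and with TBX5, 2 rose and 2 fell (6.56% and 6.12%). The medians were 0.12, 0.020, 0.025 and 0.091. With TBX2 the chemokine gene CXCL3 (1.32, SE 0.45), the cytokine gene IL32 (1.09, SE 0.18) and CSF1, which encodes a macrophage growth factor (0.76, SE 0.27), rose, with adjusted p of 0.0331, 7.12e-05 and 0.0412 (edgeR). CXCL3 and CSF1 were low, at 0.177 to 1.14 and 0.890 to 1.66 CPM in the controls. CSF1 did not pass with DESeq2 (adjusted p = 0.108), with Ctl alone (0.144) or without TBX2 replicate a (0.58, adjusted p = 0.23, edgeR). CXCL3 did not pass against EV alone (adjusted p = 0.104, edgeR) or without TBX2 replicate b or c (adjusted p of at most 0.114).
IL32 stood at 2.301 to 3.07 CPM in the controls and at 6.53, 6.22 and 4.05 with TBX2. The anti-apoptotic gene BCL2L1 stood at 48.7 to 55.5 CPM in the controls and fell in all 4 contrasts, by -0.48 (SE 0.079), -0.21 (SE 0.067), -0.25 (SE 0.064) and -0.44 (SE 0.075), with adjusted p of 9.14e-05, 0.0511, 0.0157 and 0.000635 (edgeR), and 41.3% of its exon bases overlap the antisense gene ABALON. The TBX3 value of BCL2L1 was -0.15 without TBX3 replicate b (adjusted p = 0.246, edgeR), and with Ctl alone neither TBX3 (adjusted p = 0.243) nor TBX4 (0.103) passed. CXCL2, named after its values were seen because it was the only one of the 46 called in both directions, rose with TBX2 (0.65), TBX4 (0.47) and TBX5 (0.59) and fell with TBX3 (-0.23, SE 0.081, adjusted p = 0.065, edgeR). The fall with TBX3 was lost with Ctl alone (adjusted p = 0.335, edgeR), in 1 fit of all libraries (0.246) and without any of 4 libraries (EV a, EV b, TBX3 a and TBX3 b, adjusted p from 0.11 to 0.238), and the TBX5 value was 0.34 without TBX5 replicate a.

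**Figure D5:**
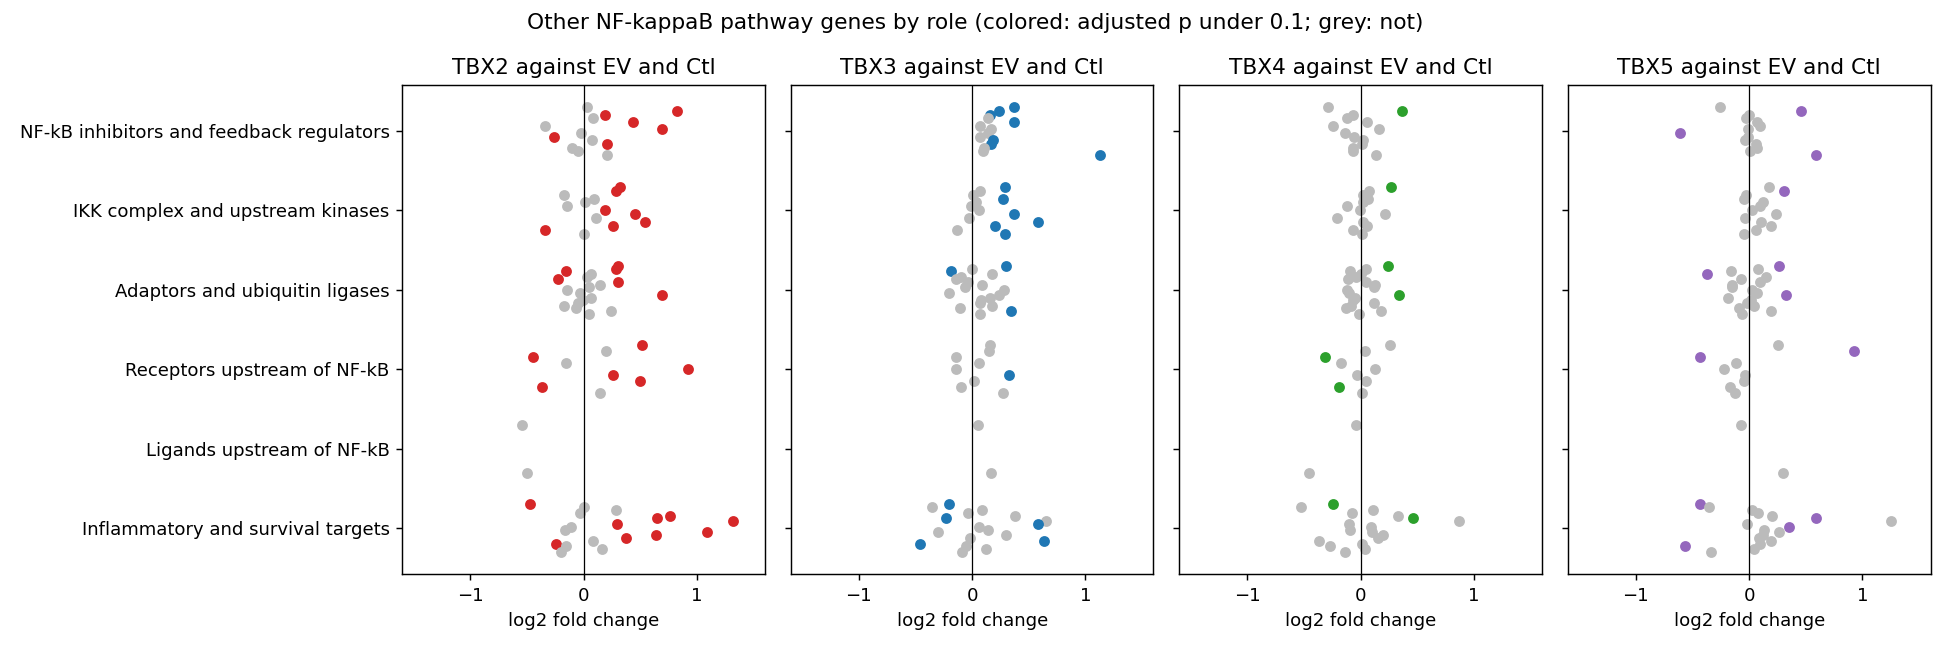
Log2 fold change (x axis) of the 75 other pathway genes against the 6 EV and Ctl libraries, 1 panel for each TBX and 1 row for each role. Each point is a gene, colored where the adjusted p was under 0.1 and grey otherwise; 26 genes are colored to the right of 0 with TBX2 and 5 with TBX4.

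Outside the tested set, 23 pathway genes had counts but did not pass the filter, and 1 symbol was not matched. The genes under the filter included the ligands TNF, LTA and LTB, the receptors TLR1, TLR2 and TLR4 and the inflammatory targets CXCL1, CCL2, PTGS2 and VCAM1. For these 23 genes a difference between groups could not be assessed at this depth. A further 7 were listed at 0 in all 18 libraries (OTUD7B, IKBKG, IKBKE, IL17A, IL36G, CCL5 and CSF2). Symbols were matched through another annotation release than the one counted, whose identifiers can differ, and IKBKG encodes an IKK subunit that nearly every cell uses, so these zeros are not read as absence of the transcripts or as a matter of depth.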

How the data were processed

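RNA of NCI-H1299 cells was sequenced in 18 libraries. According to the labels and the study's methods, the authors made the base calls with bcl2fastq 1.8.4, aligned the reads to GRCh37 with STAR 2.3.0 and ran featureCounts with its defaults, which ignore strand, over Ensembl genes, and the counts were deposited unnormalized and unfiltered in 1 table. Groups and letters came from the sample labels. The genes and the pathway lists were chosen with earlier results of these data known.

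From these counts, 15576 of 63677 genes passed a minimum of more than 5 counts in 10 or more libraries. edgeR 4.0.16 (R 4.3.3) with TMM scaling fitted each TBX with the 6 control libraries (EV and Ctl pooled, as in the study), EV with Ctl, and all 18 libraries for the 6 pairs and for any difference among the TBX groups. Quasi-likelihood p-values were adjusted by Benjamini-Hochberg over all tested genes, at a false-discovery rate of 0.1. Standard errors were derived from the fold change and the F statistic. Symbols came from the GENCODE lift to GRCh37, not the authors' annotation release, for 97.5% of the tested genes. Pearson's r used log2 of CPM plus 0.5. The text names the 10 genes and, of each list, the genes called in the same direction in all 4 contrasts and the 3 with the largest absolute log2 fold change among those called, and for TNFAIP3 the 5 genes with the highest r on each scale. Some fits were first tested on simulated counts, in which 200 genes had been changed. These were TBX2 against the pooled controls (edgeR and DESeq2), EV against Ctl, TBX3 minus TBX2 and any difference. The other contrasts were not simulated. Alternatives were DESeq2 1.42.0 (a likelihood ratio test for any difference), its size factors, library totals with and without the most counted gene, no filter, a minimum of 10 counts in every library, a replicate block, EV or Ctl alone, 1 fit, a false-discovery rate of 0.05 and each library left out.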

Additional observations from a re-analysis of the deposited data

Results flagged for a closer look

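Among the 25 genes named in the report that were checked over the 6 control libraries, 2 had a library whose gap to the nearest of the others, as a share of the whole range, was above Dixon's critical value. Chance gives such a gap in about 1 in 20 checks. TLR3 stood at 1.28 CPM in EV replicate b, against 0.586 to 0.827 CPM in the other 5 controls. CD40 stood at 5.99 CPM in EV replicate b, against 6.999 to 7.43 CPM in the others. Without EV replicate b the log2 fold change with TBX2 was 1.09 (SE 0.30, adjusted p = 0.0111) for TLR3 and 0.48 (SE 0.12, adjusted p = 0.0067) for CD40 in edgeR's test, against 0.92 and 0.51 with all controls.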

How the results depend on the processing

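With library totals in place of TMM, the median log2 fold change of all tested genes moved by 0.0084, -0.075, 0.26 and -0.31 for TBX2, TBX3, TBX4 and TBX5, and the share of calls that were higher went from 52.2%, 57.0%, 53.5% and 51.7% to 78.9%, 100%, 98.8% and 40.9%. Of the 8 NF-kappaB genes tested, 1 was then called for any difference among the TBX groups, 0 for EV against Ctl, TBX3 minus TBX2, TBX4 minus TBX2 and TBX5 minus TBX3, and 7 for TBX5 minus TBX4. The share of all tested genes called in these comparisons is not given for that scaling. As the medians of all genes moved in opposite directions for TBX4 and TBX5, the 7 are not read as a result about these genes. Of the pathway genes, 9, 1, 11 and 0 rose and 0 fell with any TBX, where 833, 35, 2756 and 38 of all 15576 tested genes rose. Against the pooled controls REL with TBX5 turned to -0.0040, BCL10 with TBX5 to -0.034 and BCL2L1 with TBX4 to 0.011, while TNFAIP3 was 1.65, 1.14, 1.34 and 0.50. Library totals without the most counted gene gave shares of higher calls of 48.3%, 33.7%, 41.9% and 39.6%, 1 gene for TBX5 minus TBX3 and 10 risen pathway genes with TBX3, and TNFAIP3 was 1.63, 1.17, 1.06 and 0.79. At that last setting 867 of all tested genes rose with TBX3, against 1320 with TMM. The cause of these moves was not tested.

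Deviations of libraries with the same letter (a, b or c) had a mean correlation of -0.00092 (lowest -0.11, 3 of 45 pairs over 0.1). Of the 18 libraries, 10 were closest to a library of their own letter among the other groups. What chance gives for this count was not computed. No pairing by letter showed in the mean correlation, but neither measure excludes that some libraries were paired. With the replicate block, 0 of the genes were called for EV against Ctl, and no other count moved by over 1.5 times. For EV against Ctl, 1 fit of all libraries and a false-discovery rate of 0.05 also gave 0. For TBX5 minus TBX3, DESeq2, no filter and a false-discovery rate of 0.05 each gave 1. Of the pathway genes, the rate of 0.05 left 11 higher and 2 lower with TBX3 and 5 higher and 3 lower with TBX5, and DESeq2 left 3 higher with TBX4 and 3 lower with TBX5. Ctl controls alone left 3 higher with TBX4, 2 lower with TBX3 and 3 lower with TBX5, and EV controls alone left 3 higher with TBX5. Over all tested genes DESeq2 called 685 higher with TBX4, against 1087 in edgeR. With TBX5 it called 1357 in either direction, against 1975 in edgeR. For the other settings of this paragraph the share of all tested genes called is not given. None of these counts is read as particular to the pathway.

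With single libraries left out, the genes called ranged from 0 (Ctl a) to 2 (Ctl c) for EV against Ctl, from 0 (TBX5 a) to 4 (TBX3 c) for TBX5 minus TBX3, from 0 to 1 (TBX3 c) for TBX4 minus TBX3, from 4 to 5 for TBX3 minus TBX2, from 5 to 6 for TBX4 and for TBX5 minus TBX2, and from 5 to 7 for any difference. Pathway genes higher ranged from 23 to 27 with TBX2, 11 (TBX3 b) to 17 with TBX3, 3 (TBX4 c) to 5 with TBX4 and 4 (TBX5 c) to 9 with TBX5. Those lower ranged from 5 (TBX2 c) to 9, 1 (TBX3 b) to 5, 2 (TBX4 a) to 4 and 2 (TBX5 c) to 5. The share of all tested genes called with a library left out is not given. These ranges are therefore not read as particular to the pathway. Depth limits CXCL8 and IL6 to no statement about groups.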
